A study of Mus musculus with 4 samples.

Results

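A set of 9 genes encoding Wnt ligands was followed across the cell classes of mouse epidermis: Wnt3, Wnt3a, Wnt4, Wnt5a, Wnt7a, Wnt7b, Wnt10a, Wnt10b and Wnt16. They were chosen by name as a list and make up 9 of the 32285 genes in the matrices, and 9 of the 19 mouse Wnt ligand genes found there. RNA of single cells from adult epidermis was sequenced in 4 droplet libraries, each the only library of its group. Control mice were DNp63fl/fl, which carry floxed alleles of ΔNp63, the isoform of the p63 transcription factor that lacks the amino-terminal transactivation domain, and no Cre. Experimental mice were DNp63fl/fl;K14-CreT2, in which a tamoxifen-dependent Cre driven by the keratin 14 promoter deletes ΔNp63 in basal keratinocytes, so cells that never used this promoter keep the gene. Both genotypes received tamoxifen by gavage at 200 mg/kg a day for 5 days and were sampled 1 day or 1 week after ablation. The labels give an age range of 2 to 17 months and equal numbers of males and females, and a digestion in 0.25% trypsin at either 4 or 37 °C. How many mice, and which ages or digestion, went into each library is not given in the sources used here.

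Wnt proteins are secreted, lipid-modified signals that act over short distances. Porcn attaches the lipid, Wls carries the ligand to the cell surface, and Frizzled receptors with Lrp5 or Lrp6 receive it. In the canonical branch this stabilises β-catenin, which acts with TCF/LEF factors on target genes such as Axin2. In other branches, for which Wnt5a is best known, Frizzled and Ror receptors act on cell shape and polarity. In skin, basal cells of the epidermis and cells of the hair follicle both make and receive Wnt ligands, and canonical signalling is needed for hair follicle formation and for the hair cycle. WNT10A is mutated in human ectodermal dysplasias.

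The genes lie on 6 chromosomes of build GRCm38, to which mm10 corresponds. Wnt3 (chromosome 11, 103774150 to 103817957, plus strand) and Wnt3a (chromosome 11, 59248033 to 59290752, minus strand) each have another Wnt gene as neighbour, Wnt9b at 24329 bases and Wnt9a at 16176 bases. Wnt10a (chromosome 1, 74791516 to 74804179, plus strand) lies 6194 bases from Wnt6, and Wnt10b (chromosome 15, 98770712 to 98778150, minus strand) 11707 bases from Wnt1. Wnt4 is on chromosome 4 (137277489 to 137299726, plus strand), Wnt7a on chromosome 6 (91363981 to 91411363, minus strand) and Wnt16 on chromosome 6 (22288227 to 22298522, plus strand). Wnt5a (chromosome 14, 28504750 to 28527448, plus strand) overlaps the antisense gene Gm2670, and Wnt7b (chromosome 15, 85535437 to 85582473, minus strand) overlaps the antisense gene AU022754. The antisense genes held 7 to 26 and 8 to 44 UMIs a library, against 162 to 750 for Wnt5a and 1816 to 6434 for Wnt7b.

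RefSeq promoter windows (GRCm38.p6) were available for 6 of the 9 genes. Those of Wnt3a, Wnt10b and Wnt16 are printed because these are the matched genes whose level was at least 2-fold lower in experimental keratinocytes at 1 week. Each line gives 250 bases on the strand of the gene, 5′ to 3′, and capitals mark matches to CCAAT or GGGCGG on either strand. The searches for CTTTG, the core of the TCF/LEF motif, and for the p53 family motif, to which p63 also binds, found none in these 3 windows. GGGCGG matches may share bases.
Wnt3a, chr11:59290752-59291001, minus strand: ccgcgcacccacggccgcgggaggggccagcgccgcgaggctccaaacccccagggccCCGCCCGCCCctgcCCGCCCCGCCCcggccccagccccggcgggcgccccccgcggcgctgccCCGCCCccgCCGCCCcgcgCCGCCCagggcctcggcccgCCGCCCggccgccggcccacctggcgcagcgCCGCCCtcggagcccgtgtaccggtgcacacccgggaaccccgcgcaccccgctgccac
Wnt10b, chr15:98778151-98778400, minus strand: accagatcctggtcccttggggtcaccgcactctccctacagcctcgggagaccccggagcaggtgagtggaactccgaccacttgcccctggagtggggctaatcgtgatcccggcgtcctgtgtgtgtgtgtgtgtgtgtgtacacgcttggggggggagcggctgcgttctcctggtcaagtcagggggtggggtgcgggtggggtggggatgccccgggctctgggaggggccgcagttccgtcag
Wnt16, chr6:22287977-22288226, plus strand: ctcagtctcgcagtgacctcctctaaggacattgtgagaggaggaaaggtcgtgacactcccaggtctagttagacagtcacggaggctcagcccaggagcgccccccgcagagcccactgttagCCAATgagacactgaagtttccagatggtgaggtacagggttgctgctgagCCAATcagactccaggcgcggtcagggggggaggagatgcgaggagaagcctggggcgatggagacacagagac
The Wnt3a window had 9 GC boxes, 41 CpG dinucleotides and a GC content of 87.6%, the Wnt10b window had no match to any of the motifs and 66.8% GC, and the Wnt16 window had 2 CCAAT boxes and 59.2% GC. Of 32851 mouse promoter windows of this length, 48.6% held CTTTG, 33.8% CCAAT, 32.7% GGGCGG and 7.13% the p53 family motif. A match describes the letters and not a bound site.

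The libraries differed in ways that bear on every value. The gene UMI totals, where a UMI (unique molecular identifier) stands for 1 captured RNA molecule, were 179736563 (control) and 144323031 (experimental) at 1 day and 88903603 and 68191870 at 1 week, over 18413 to 33552 barcodes. A 3′ kit was used at 1 day and a 5′ kit at 1 week, so levels were compared only within a time point. The lowest UMI count listed was 500 in both control libraries, 1368 in the 1-day experimental and 1059 in the 1-week experimental library. Control and experimental libraries shared 299 barcodes at 1 day and 661 at 1 week. Clusters of low-UMI barcodes, with 11475 of 19879 cells of the 1-week control and 11259 of 15626 of the 1-week experimental library, were kept out of the keratinocytes. At 1 day such clusters held 164 control and 2556 experimental cells and were kept out too. Also left out at 1 week were 8 clusters with markers of more than 1 cell type (1676 control and 393 experimental cells) and 1 unnamed cluster (108 and 8). Trp63, the gene targeted, was at 404 CPM (the gene's UMIs scaled to the UMIs of all genes in those cells) in control and 127 CPM in experimental keratinocytes at 1 day, and at 449.8 and 139 CPM at 1 week.

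Cells were clustered without any Wnt pathway gene, and clusters were named from marker genes. Summed over keratinocyte clusters, 20380 control and 15534 experimental cells were used at 1 day, with 107583698 and 70868593 UMIs, and 5836 and 3496 cells at 1 week, with 46845405 and 36221170 UMIs. Names rest on the clusters' marker scores. In the control library at 1 day basal interfollicular-like cells held Krt14 at 11480 CPM, spinous-like cells Krt10 at 17640 CPM, outer bulge-like cells Cd34 at 530.2 CPM, upper hair follicle-like cells Krt79 at 6476 CPM and T cell-like cells Cd3e at 1211 CPM, against 50.1 CPM of Cd34 and 0.809 CPM of Cd3e in all keratinocytes. Granular-like cells were mixed: beside Lor at 5658 CPM they held Krt79 at 3601 and Krt17 at 10470 CPM, near the upper hair follicle-like levels (6476 and 8992 CPM). At 1 day the basal interfollicular-like class had 4755 control and 531 experimental cells and the spinous-like class 4952 and 942. At 1 week the numbers were 2097 and 18 for the first and 1106 and 7 for the second class. Basal and spinous-like cells could therefore be compared between groups at 1 day only. The experimental libraries also held keratinocyte clusters in which fewer than 5% of cells were control cells, with 5270 experimental and 10 control cells at 1 day and 1071 and 1 at 1 week. A cluster of 278 of these 1-week cells was apart, with the sebaceous gland genes Elovl3 and Cidea among its leading genes and Scd1 at 7191 CPM. At 1 day the experimental library held in addition a cluster led by Krt8, with 4352 experimental and 4 control cells, which was kept out of the keratinocytes. Its experimental cells held keratinocyte genes, with Krt14 at 6415 and Krt5 at 1452 CPM, against 3117 and 869.3 CPM in the experimental keratinocytes. At 1 week a cluster of 651 experimental cells with Krt8 among its leading genes was counted with the keratinocytes. The keratinocyte sums of the time points are thus unlike in this. Clustering used genes that differ between the groups, so these cell numbers say nothing of how abundant a cell type was.

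Wnt3 and Wnt10a, ligands of the canonical branch, were high in basal and cycling classes of the control libraries. Values are UMI sums in CPM with exact 95% Poisson intervals, and all intervals cover counting error only, since each group is 1 library and no difference has a replicate check. CPM carries no length term, so levels are compared between classes and not between genes. In the 1-day control Wnt3 was at 84.9 CPM (81.03 to 88.8) in basal interfollicular-like, 61.8 CPM (55.98 to 67.95) in cycling-like and 31.04 CPM (29.3 to 32.9) in spinous-like cells. It was far lower in the follicle, at 7.03 CPM (5.27 to 9.20) in upper hair follicle-like and 2.75 CPM in outer bulge-like cells. At 1 week the control order was the same at both ends, with 145 CPM (139 to 152) in basal interfollicular-like and 2.76 CPM in outer bulge-like cells, and spinous-like (69.9 CPM) and cycling-like cells (68.02 CPM) did not differ beyond their intervals. Wnt10a had 90.2 CPM (83.2 to 97.6) in cycling-like and 81.7 CPM (77.9 to 85.6) in basal interfollicular-like cells of the 1-day control, which overlap, then 35.7 CPM (32.0 to 39.7) in outer bulge-like, 13.3 CPM in upper hair follicle-like and 7.77 CPM in spinous-like cells. In the 1-week control it was at 148 CPM (142 to 154) in basal interfollicular-like, 133 CPM (121 to 146) in cycling-like, 64.99 CPM in upper hair follicle-like and 10.7 CPM in spinous-like cells. Wnt10a was thus low in spinous-like cells in both control libraries.

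Wnt4 was spread more evenly over keratinocyte classes than Wnt3. The 1-day control had 195 CPM (184 to 206) in cycling-like, 134 CPM (129 to 139) in basal interfollicular-like, 103 CPM (97.04 to 110) in outer bulge-like, 70.7 CPM (68.02 to 73.4) in spinous-like and 61.7 CPM (56.2 to 67.6) in upper hair follicle-like cells. None of these neighbours overlapped. In the 1-week control the basal interfollicular-like class was highest, at 193 CPM (186 to 200.3), followed by cycling-like cells at 153 CPM (140.2 to 167), while outer bulge-like (98.2 CPM) and upper hair follicle-like cells (92.98 CPM) overlapped. Wnt7b, a ligand of the canonical branch, was at 57.8 CPM (54.6 to 61.04) in basal interfollicular-like and 51.3 CPM (46.04 to 56.97) in cycling-like cells at 1 day. Outer bulge-like (28.5 CPM), spinous-like (26.3 CPM) and granular-like cells (23.96 CPM) did not differ beyond their intervals, and upper hair follicle-like cells were lowest of the larger classes at 4.51 CPM. The same 2 ends held in the 1-week control, with 67.1 CPM in basal interfollicular-like and 3.18 CPM in upper hair follicle-like cells. Within the outer bulge-like class at 1 day, 1 of its 3 clusters, led by Aspn and Pthlh, held Wnt7b at 81.7 CPM, against 13.3 and 19.6 CPM in the other two.

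Wnt5a, the ligand best known outside the β-catenin branch, and Wnt16 were highest in the stroma or in basal cells. Fibroblast-like cells held Wnt5a at 18.8 CPM (10.7 to 30.5; 16 UMIs) in the 1-day control and 30.5 CPM (21.1 to 42.6; 34 UMIs) in the 1-week control, and basal interfollicular-like cells at 9.07 CPM (7.84 to 10.4) and 22.1 CPM (19.7 to 24.6). The pairs of intervals do not overlap at 1 day and overlap at 1 week. Wnt16 was at 37.6 CPM (25.7 to 53.01; 32 UMIs) in fibroblast-like and 14.0 CPM (12.5 to 15.7) in basal interfollicular-like cells of the 1-day control, and in the reverse order at 1 week, at 34.04 CPM and 65.2 CPM (61.2 to 69.4). Among the named classes with at least 50 control cells Wnt10b had its highest level in T cell-like cells, at 11.6 CPM (6.36 to 19.5; 14 UMIs) and 24.3 CPM (12.6 to 42.5; 12 UMIs), with 1.84 and 8.49 CPM in basal interfollicular-like cells of the same libraries. The 1-day interval overlaps that of melanocyte-like cells, at 8.43 CPM (1.02 to 30.4) on 2 UMIs. The 1-week interval overlaps that of cycling-like cells, at 9.63 CPM on 32 UMIs. Wnt3a was rare. It reached 4.21 CPM (3.23 to 5.39; 63 UMIs) in the basal interfollicular-like cells of the 1-week control, and the 1-day control keratinocytes held 15 UMIs in all. Wnt7a was rarest, with 5 UMIs in the 1-day and 16 UMIs in the 1-week control keratinocytes, 10 of the latter in outer bulge-like cells.

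**Figure D1:**
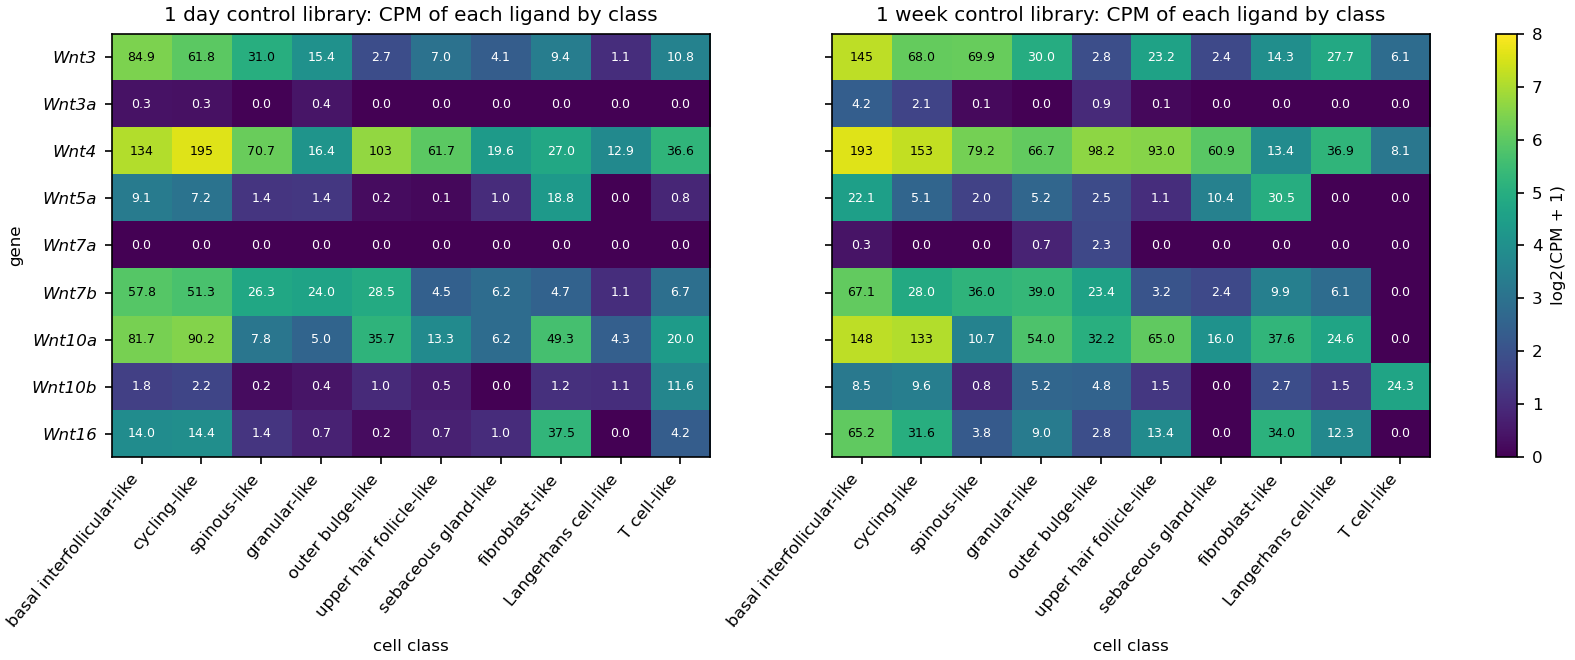
Level of each ligand (rows, in CPM as printed, coloured by log2(CPM + 1)) by cell class (columns) in the 1-day control library (left) and the 1-week control library (right). Wnt3, Wnt7b and Wnt10a are bright in the basal interfollicular-like column, Wnt5a is highest in fibroblast-like cells in both panels and Wnt10b in T cell-like cells, while Wnt16 is highest in fibroblast-like cells at 1 day and in basal interfollicular-like cells at 1 week.

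In experimental keratinocytes at 1 day, Wnt5a, Wnt10a and Wnt10b were at least 2-fold lower, and the other ligands with enough UMIs differed by less. A ligand is counted below when both libraries together held at least 20 UMIs in the class, both had at least 50 cells of it, and the levels differed at least 2-fold. By this rule 3 of 8 ligands with enough UMIs were lower, against 3.12% of 14719 genes, and 0 of 8 higher, against 5.94%. Wnt10a went from 40.6 CPM (4371 UMIs) to 19.6 CPM (1388 UMIs), a log2 ratio of experimental to control of -1.05 (exact binomial 95% interval -1.14 to -0.96). Wnt5a went from 3.24 to 1.23 CPM (349 and 87 UMIs), a log2 ratio of -1.40 (-1.76 to -1.06). Wnt10b went from 1.11 to 0.367 CPM (119 and 26 UMIs), a log2 ratio of -1.59 (-2.26 to -0.97). Wnt10a and Wnt10b are ligands of the canonical branch, and Wnt5a is the noncanonical one.

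Wnt4 was also lower at 1 day, by less than 2-fold, from 98.4 to 75.1 CPM with a log2 ratio of -0.39 (-0.44 to -0.34). Wnt16 went from 5.45 to 4.28 CPM, a log2 ratio of -0.35 (-0.55 to -0.15). Wnt7b was higher, from 29.9 to 36.9 CPM with a log2 ratio of 0.30 (0.23 to 0.38), and Wnt3 went from 36.5 to 39.8 CPM with 0.13 (0.06 to 0.20). Both of these depended on the clusters almost without control cells, without which Wnt3 had -0.40 (-0.49 to -0.30) and Wnt7b -0.05 (-0.15 to 0.04). Wnt3a, with 15 and 9 UMIs, had a log2 ratio of -0.14 and an interval from -1.51 to 1.15, and Wnt7a had too few UMIs (5 and 9). The call for Wnt10a also depended on those clusters: over the keratinocyte clusters with at least 5% control cells its log2 ratio was -0.48 (-0.57 to -0.39), past 0 and short of 2-fold. Over the same clusters Wnt5a had -1.07 (-1.48 to -0.69) and Wnt10b -1.18 (-1.92 to -0.50). The count there was 2 of 8 lower, against 2.06% of 14533 genes, and 0 of 8 higher, against 8.15%. All of those clusters had at least 50 cells in both 1-day libraries. With the Krt8-led cells added to all keratinocytes, Wnt3 had 0.48, Wnt7b 0.59, Wnt16 -0.09 and Wnt4 -0.25.

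At 1 week, Wnt3a, Wnt5a, Wnt10b and Wnt16 were at least 2-fold lower in experimental keratinocytes and Wnt7a was higher. The count was 4 of 9 lower, against 5.60% of 14277 genes, and 1 of 9 higher, against 10.3%. Wnt10b went from 4.46 CPM (209 UMIs) to 0.801 CPM (29 UMIs), a log2 ratio of -2.48 (-3.09 to -1.91). Of its control UMIs, 127 were in basal interfollicular-like cells, a class with 18 experimental cells. Wnt5a went from 8.84 CPM (414 UMIs) to 2.07 CPM (75 UMIs), a log2 ratio of -2.09 (-2.47 to -1.74), and 330 of its control UMIs were in the same class. Wnt3a went from 1.64 to 0.387 CPM (77 and 14 UMIs), a log2 ratio of -2.09 (-3.02 to -1.25). Of its 77 control UMIs, 63 were in that class too. Wnt16 went from 26.9 to 12.9 CPM (1260 and 468 UMIs), a log2 ratio of -1.06 (-1.21 to -0.90). Of its control UMIs, 976 of 1260 were in basal interfollicular-like cells.

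Over the 5 keratinocyte clusters with at least 50 cells in both 1-week libraries, none of them basal interfollicular or spinous-like, 1 of 8 ligands was past 2-fold lower (5.00% of 13495 genes) and 0 of 8 higher (5.59%). That ligand was Wnt10b, at 3.99 and 1.28 CPM (71 and 29 UMIs), a log2 ratio of -1.65 (-2.32 to -1.003). The clusters were unlike in this: cycling-like cells held 32 and 3 of these UMIs and outer bulge-like cells 21 and 22. Wnt16 had -0.52 (-0.80 to -0.24) there, and Wnt5a, at 3.15 and 2.16 CPM, had -0.55 with an interval that included 0 (-1.13 to 0.03). Wnt3a had too few UMIs (12 and 7). The 1-week calls of Wnt5a and Wnt16 over all keratinocytes were thus not seen in the clusters that both libraries held.

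The other 1-week ligands, apart from Wnt7a, were lower by less over all keratinocytes. Wnt10a went from 75.3 to 57.3 CPM, a log2 ratio of -0.40 (-0.47 to -0.32), against -1.05 at 1 day, a difference that was not tested. Wnt3 had -0.39 (-0.47 to -0.31), from 77.2 to 59.03 CPM. Wnt4 had -0.37 (-0.43 to -0.31), from 124 to 95.9 CPM, and Wnt7b had -0.28 (-0.39 to -0.18), from 38.1 to 31.3 CPM. Wnt7a went from 0.342 to 1.35 CPM (16 and 49 UMIs), a log2 ratio of 1.99 (1.15 to 2.90). Of its 49 experimental UMIs, 40 came from the clusters almost without control cells, 37 of them from 1 cluster of 651 experimental cells led by Krt6b, and without those clusters the ratio was 0.19 (-1.17 to 1.46). Leaving them out, which keeps the basal and spinous-like control cells, moved Wnt3 to -1.58 and Wnt7b to -1.12, and the count was then 6 of 9 lower (5.21% of 14039 genes) and 0 of 9 higher (13.1%). Over the 5 clusters with at least 50 cells in both libraries Wnt3 had -0.09 (-0.27 to 0.09), Wnt7b 0.16 (-0.07 to 0.39), Wnt10a 0.03 (-0.08 to 0.14) and Wnt7a -0.64 (-2.09 to 0.77), while Wnt4 had -0.53 (-0.63 to -0.43). The 1-week ratios of Wnt3, Wnt7b and Wnt10a therefore depended on which clusters were summed, and Wnt4 was lower in each of the 3 sets.

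**Figure D2:**
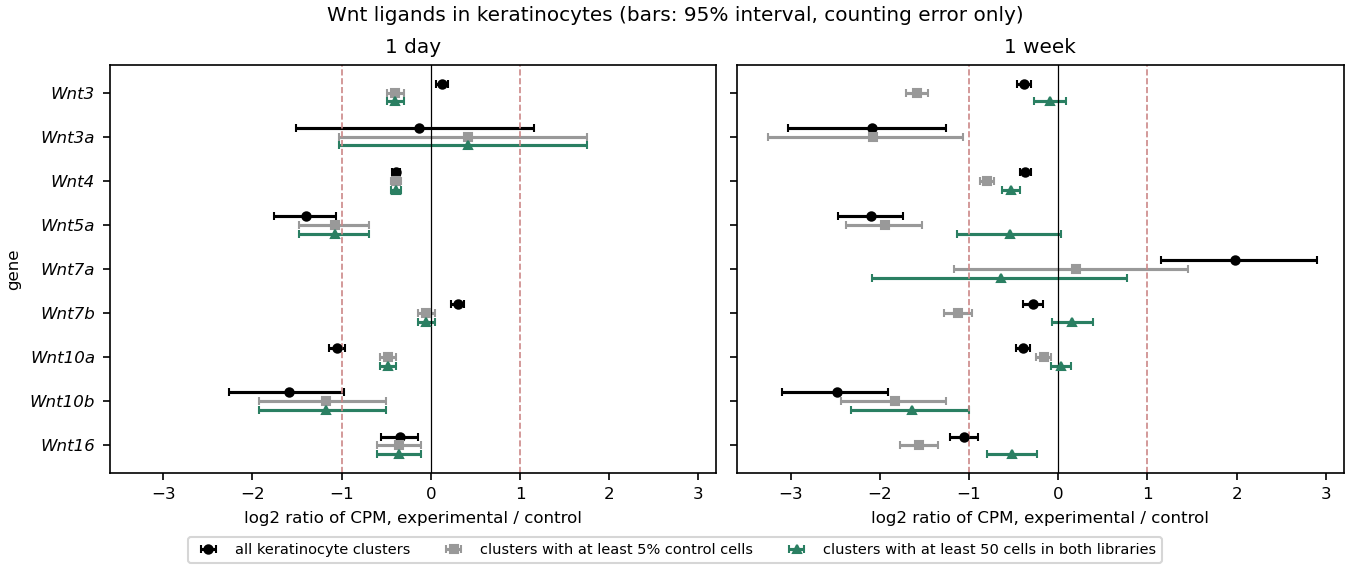
Log2 ratio of CPM, experimental over control (horizontal axis), of each ligand (rows) in keratinocytes at 1 day (left) and 1 week (right), with 95% intervals for counting error, over all keratinocyte clusters (black circles), over clusters with at least 5% control cells (grey squares) and over clusters with at least 50 cells in both libraries (green triangles). Dashed lines mark 2-fold. Wnt10b lies below the left line at both time points in all 3 sets of clusters, while at 1 week Wnt5a and Wnt16 do so in black and grey only.

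Part of each keratinocyte ratio can be expressed as a shift in which clusters the cells fell into. For clusters with at least 50 cells in both libraries, the control levels were reweighted to the experimental share of UMIs of each cluster. The clusters almost without control cells and the Krt8-led cells are not in this split. Clustering used genes that differ between the groups, so the reweighted part need not be a change in cell types, and this was not tested. The parts carry no interval. At 1 day (15 clusters, 20370 control and 10264 experimental cells) the reweighting alone gave a log2 ratio of -0.62 for Wnt3. The levels within clusters gave 0.23, and the observed ratio was -0.40. Wnt7b had the same pattern, with -0.34 and 0.29. For Wnt4 the reweighting gave -0.02 and the levels within clusters -0.37, and for Wnt10a -0.05 and -0.42. Wnt5a was divided between -0.49 and -0.58. For Wnt10b, on 119 and 21 UMIs, the reweighting gave 0.30 and the within-cluster part -1.48. At 1 week 5 clusters qualified (2632 and 2400 cells), and the within-cluster parts were -1.84 for Wnt10b, -0.69 for Wnt16, -0.67 for Wnt5a, -0.57 for Wnt4, -0.32 for Wnt3, -0.10 for Wnt10a and -0.04 for Wnt7b. The part of Wnt10b was not shared evenly. Its level went from 9.63 to 0.521 CPM in cycling-like cells and from 4.83 to 4.79 CPM in outer bulge-like cells.

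**Figure D3:**
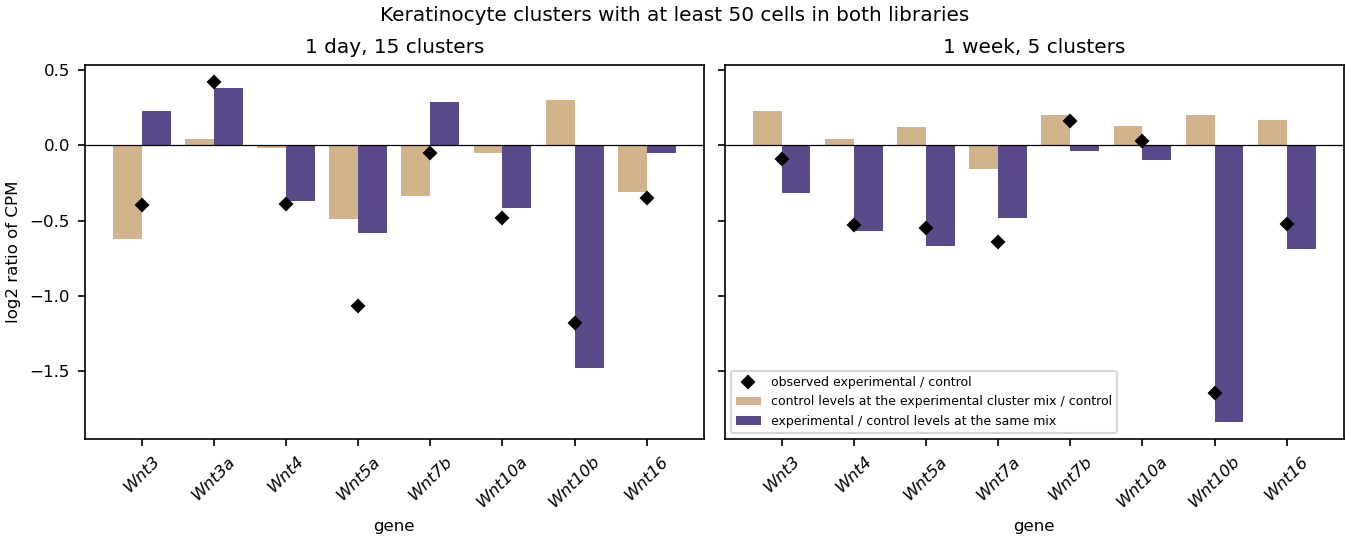
Log2 ratio of CPM (vertical axis) of each ligand over keratinocyte clusters with at least 50 cells in both libraries, at 1 day (left) and 1 week (right). Diamonds show the observed ratio, tan bars the control levels at the experimental mix of clusters over the control, and purple bars the experimental over the control levels at the same mix. At both time points the purple bar of Wnt10b is the longest, at -1.48 and -1.84.

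In the basal interfollicular-like class at 1 day, 1 of 7 ligands was at least 2-fold lower (4.80% of 10748 genes) and 0 of 7 higher (4.48%). That ligand was Wnt16, at 14.0 CPM in 304 control UMIs and 5.57 CPM in 10 experimental UMIs, a log2 ratio of -1.33 (-2.40 to -0.43). Wnt4 was lower, from 134 to 86.3 CPM (-0.63; -0.88 to -0.40), and so was Wnt10a, from 81.7 to 61.3 CPM (-0.41; -0.71 to -0.14). Wnt7b was higher, from 57.8 to 81.9 CPM (0.50; 0.25 to 0.75). Wnt3 (84.9 and 76.9 CPM) and Wnt5a (9.07 and 10.6 CPM, the latter from 19 UMIs) did not differ beyond their intervals. Wnt10b had 40 UMIs in the control and 0 in the experimental cells, which is at least 1.1-fold lower when 3 counts are allowed for the class, a floor of 1.67 CPM. The basal interfollicular-like Wnt5a levels overlapped, unlike those of all keratinocytes at 1 day. Krt14, whose promoter drives the Cre, went from 11480 to 5783 CPM in these cells.

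Cycling-like cells were numerous enough at both time points. At 1 day 1 of 6 ligands, Wnt5a, was at least 2-fold lower (2.57% of 10615 genes) and 0 of 6 higher (5.12%). Wnt5a went from 7.22 to 3.18 CPM (49 and 16 UMIs), a log2 ratio of -1.18 (-2.10 to -0.34). Wnt4 went from 195 to 135 CPM (-0.53; -0.67 to -0.40), Wnt10a from 90.2 to 59.8 CPM (-0.59; -0.80 to -0.39) and Wnt3 from 61.8 to 48.9 CPM (-0.34; -0.57 to -0.11). At 1 week 1 of 7 ligands, Wnt10b, was lower (6.13% of 10938 genes) and 0 of 7 higher (7.32%). Wnt10b went from 9.63 CPM (32 UMIs) to 0.521 CPM (3 UMIs), a log2 ratio of -4.21 (-6.56 to -2.53). Wnt3 (68.02 and 66.7 CPM), Wnt7b (27.99 and 26.6 CPM), Wnt10a (133 and 144 CPM), Wnt5a (5.12 and 5.39 CPM) and Wnt16 (31.6 and 26.8 CPM) did not differ beyond their intervals there, and Wnt4 went from 153 to 129 CPM (-0.24; -0.41 to -0.08). Krt8, a keratin of simple epithelia, went from 1.92 to 993 CPM in cycling-like cells at 1 day, and Krt8 and Nppb were among the leading genes of the 1-week cluster. The basal genes Krt14 (13230 to 6010 CPM), Krt15 (3283 to 916 CPM) and Col17a1 (1016 to 302 CPM) were lower in cycling-like cells at 1 day. The part of such marker shifts in the ligand ratios of this class was not tested at either time point.

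Spinous-like and granular-like cells, which have left the basal layer, had no ligand past 2-fold at 1 day when each class was summed. For spinous-like cells the counts were 0 of 6 lower (4.66% of 11298 genes) and 0 of 6 higher (5.26%), and for granular-like cells 0 of 4 lower (2.26% of 8817 genes) and 0 of 4 higher (5.08%). Spinous-like Wnt3 went from 31.04 to 39.9 CPM (0.36; 0.14 to 0.59) and Wnt4 from 70.7 to 54.1 CPM (-0.39; -0.58 to -0.20). Most control spinous-like cells were in 1 of the 2 spinous clusters (3718 of 4952) and most experimental ones in the other (581 of 942). Wnt10a, at 7.77 and 8.03 CPM in the class, went from 11.8 to 17.9 CPM in the first cluster (0.61; -0.07 to 1.22) and from 1.53 to 4.35 CPM in the second (23 and 15 UMIs; 1.505; 0.46 to 2.51), values picked after they were seen. In the first cluster Krt10 went from 12340 to 5756 CPM, Krt15 from 1006 to 2659 CPM and Col17a1 from 492.5 to 929.6 CPM. Krt14 went from 1476 to 721.6 CPM there. In the second Krt10 went from 25920 to 19490 CPM and Krt15 from 135.5 to 339.6 CPM. The part of these shifts in the spinous-like ratios was not tested. Granular-like Wnt7b went from 23.96 to 42.6 CPM (0.83; 0.43 to 1.25) and Wnt4 from 16.5 to 29.5 CPM (0.84; 0.35 to 1.35). In the same cells Krt79 went from 3601 to 1632 CPM, Krt17 from 10470 to 4753 CPM and Flg from 423 to 2371 CPM, and upper hair follicle-like cells were low in Wnt7b. The part of these shifts in the ligand ratios was not tested. At 1 week granular-like cells numbered 74 and 170, and 4 of 5 ligands were lower, against 36.0% of 8097 genes, with 0 of 5 higher (6.64%). Wnt4 went from 66.7 to 5.98 CPM, Wnt10a from 53.97 to 1.87 CPM and Wnt3 from 29.98 to 7.84 CPM. Wnt16 had 12 and 11 UMIs, with an interval that included 0 (-2.45 to 0.18). The 1-week control granular-like cells also held Krt14 at 3623 CPM and Cd3e at 226 CPM, against 199 and 14.9 CPM in the experimental ones, and the part of such other RNA in the ligand ratios was not tested.

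**Figure D4:**
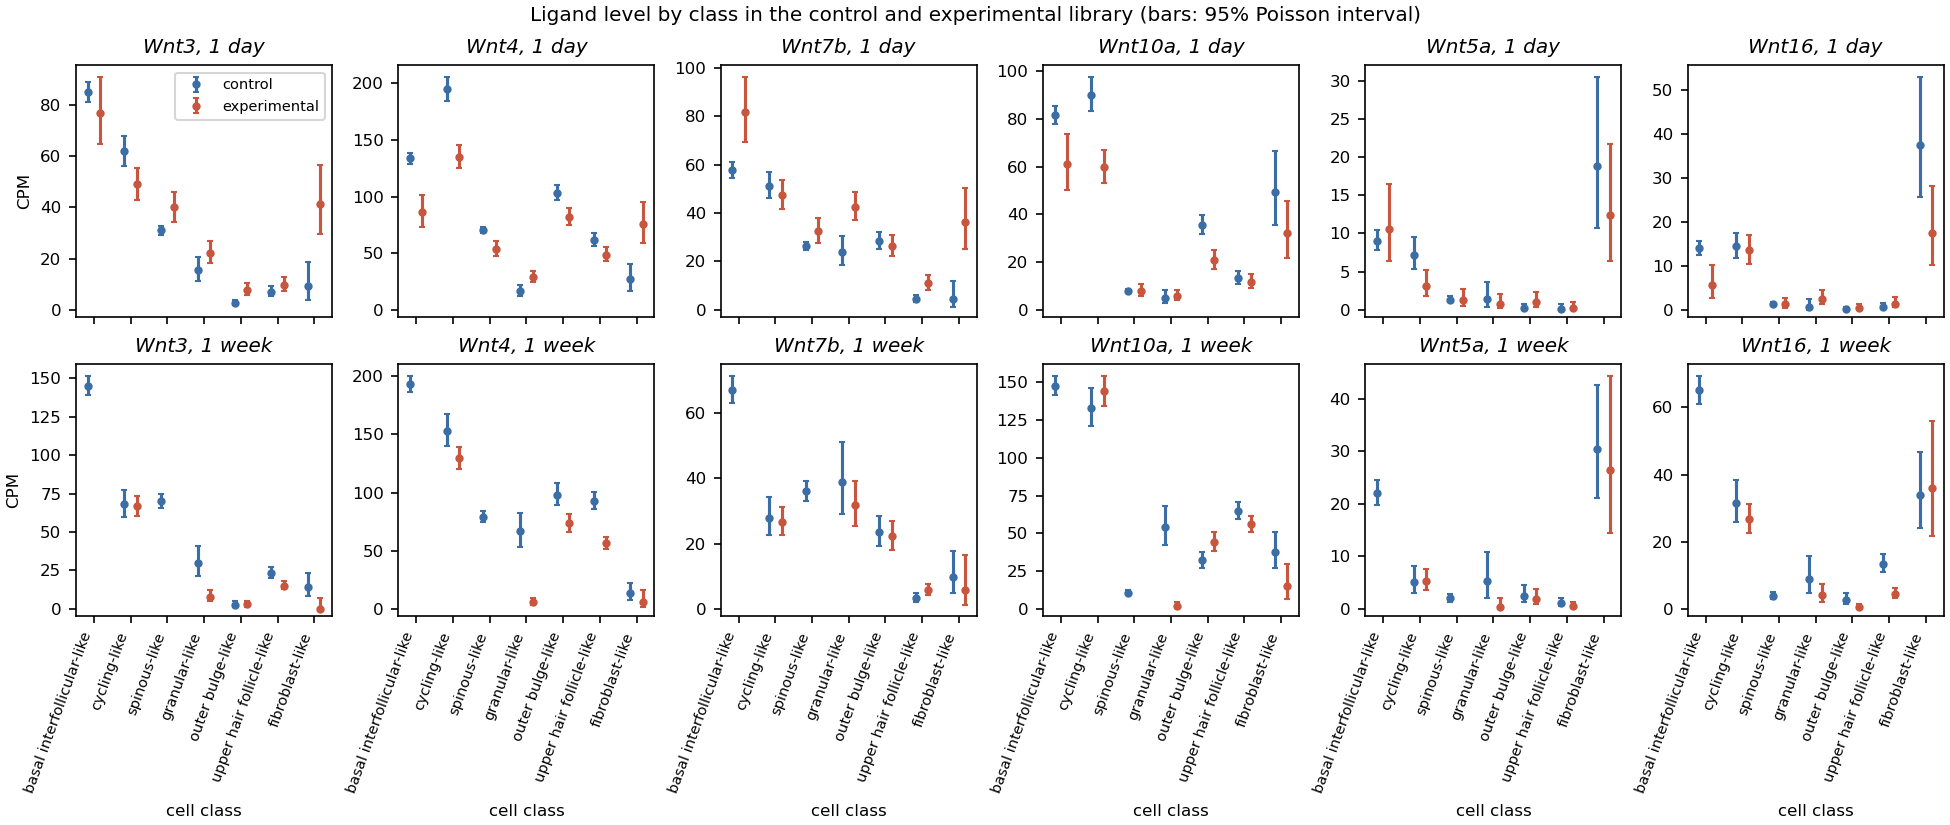
CPM of 6 ligands (columns of panels) by cell class (horizontal axis) in the control library (blue) and the experimental library (red) at 1 day (top row) and 1 week (bottom row), with 95% Poisson intervals, for classes of at least 50 cells. Red points are missing for basal interfollicular-like and spinous-like cells at 1 week, and Wnt4 is lower in red in cycling-like, outer bulge-like and upper hair follicle-like cells in both rows.

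The bulge houses the resting stem cells of the hair follicle. Its outer bulge-like class kept Wnt4 lower in the experimental library at both time points, at 103 and 82.3 CPM at 1 day (-0.33; -0.49 to -0.17) and 98.2 and 73.6 CPM at 1 week (-0.42; -0.63 to -0.21). Wnt10a went from 35.7 to 20.97 CPM at 1 day (-0.77; -1.09 to -0.46) and the other way at 1 week, from 32.2 to 44.2 CPM (0.46; 0.14 to 0.78). The 3 clusters of the 1-day class were unlike in Wnt10a. It went from 32.5 to 15.7 CPM (-1.05), from 71.3 to 46.3 CPM (-0.62) and from 10.8 to 10.9 CPM (0.01; -1.18 to 1.12). The 1-week class was 1 cluster. Wnt7b stayed within its intervals, at 28.5 and 26.4 CPM and at 23.4 and 22.2 CPM. Past 2-fold at 1 day were 0 of 4 ligands lower (1.03% of 11367 genes) and 1 of 4, Wnt3, higher (2.27%), from 2.75 to 7.84 CPM on 26 and 43 UMIs (1.51; 0.78 to 2.27). Without doublet removal this Wnt3 ratio was -0.02. Krt8 in these cells went from 3.17 to 89.2 CPM and Slpi, a leading gene of the larger 1-day cluster almost without control cells, from 0.423 to 20.2 CPM, and Wnt3 is high in the Krt8-led cells (98.7 CPM). The part of such RNA in the Wnt3 ratio was not tested. At 1 week 0 of 6 were lower (3.22% of 11319 genes) and 0 of 6 higher (3.35%). Wnt10b was at 4.83 CPM (21 UMIs) and 4.79 CPM (22 UMIs) there, a log2 ratio of -0.01 (-0.94 to 0.92), in the same libraries in which it was lower in cycling-like cells. The difference between these classes was not tested.

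In upper hair follicle-like cells, which line the opening of the follicle, Wnt4 was lower at both time points, from 61.7 to 48.8 CPM (-0.34; -0.57 to -0.11) and from 92.98 to 56.8 CPM (-0.71; -0.88 to -0.54). Wnt7b was higher at both, from 4.51 to 11.01 CPM at 1 day (34 and 56 UMIs; 1.29; 0.65 to 1.95) and from 3.18 to 5.73 CPM at 1 week (0.85; 0.11 to 1.62). At 1 day Wnt7b was the 1 of 4 ligands past 2-fold higher (3.30% of 10193 genes), with 0 of 4 lower (1.24%). Krt8 went from 0.531 to 82.2 CPM and Slpi from 1.19 to 52.9 CPM in the same cells, the Krt8-led cells held Wnt7b at 80.2 CPM, and the part of their RNA in this ratio was not tested. At 1 week Wnt16 was the 1 of 5 lower (2.87% of 11478 genes), from 13.4 to 4.54 CPM (101 and 38 UMIs; -1.56; -2.14 to -1.01), with 0 of 5 higher (5.60%). The basal genes Krt15 (3395 to 1527 CPM) and Col17a1 (534.5 to 205.1 CPM) were lower in these cells too, Slpi went from 28.8 to 142.6 CPM and Krt8 from 4.11 to 43.9 CPM, and the part of these shifts in the Wnt16 ratio was not tested. Wnt3 had 0.48 (-0.10 to 1.07) at 1 day and -0.61 (-0.96 to -0.28) at 1 week. Among keratinocytes without a class at 1 day, a cluster led by Cald1 with Lgr5 among its leading genes had the highest Wnt10b level of the keratinocyte clusters with both libraries, at 13.8 CPM (27 UMIs) in the control and 3.82 CPM (7 UMIs) in the experimental library, a log2 ratio of -1.85 (-3.29 to -0.62). It was picked after its values were seen. Its control and experimental cells also differed in markers, with Slpi at 5.6 and 200.6 CPM, Krt79 at 93.7 and 430.0 CPM, Postn at 294.9 and 650.2 CPM and Lhx2 at 274.6 and 164 CPM, and the part of this in the ratio was not tested.

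The clusters almost without control cells have no counterpart for a ratio, so their levels are given as they stand. At 1 day they were 2 unlike clusters. The larger, of 3648 experimental cells and led by Slpi and Sprr2 genes, held Wnt4 at 58.4 CPM, Wnt3 at 49.2 CPM, Wnt7b at 42.9 CPM, Wnt10a at 3.44 CPM, Wnt16 at 2.64 CPM and Wnt5a at 0.398 CPM. The smaller, of 1622 cells and led by Slurp1 and Klk5, with Krt8 at 643 CPM against 226 CPM in the larger, held Wnt4 at 117 CPM, Wnt3 at 82.1 CPM, Wnt7b at 65.5 CPM, Wnt10a at 8.16 CPM, Wnt16 at 8.54 CPM and Wnt5a at 1.66 CPM. The Krt8-led cluster held Wnt3 at 98.7 CPM, Wnt4 at 115 CPM, Wnt7b at 80.2 CPM, Wnt10a at 28.3 CPM, Wnt16 at 8.62 CPM and Wnt5a at 1.99 CPM. Set beside the basal interfollicular-like cells of the same library, Wnt3 (76.9 CPM) and Wnt7b (81.9 CPM) were alike or higher in the Krt8-led cells, while Wnt10a (61.3 CPM) and Wnt5a (10.6 CPM) were lower there. At 1 week 4 clusters were unlike as well, and 12067106 of their 13195156 UMIs came from the 651 cells led by Krt6b. Those cells held Wnt4 at 144 CPM, Wnt3 at 125 CPM, Wnt7b at 58.9 CPM, Wnt10a at 41.8 CPM, Wnt16 at 21.05 CPM and Wnt7a at 3.07 CPM. The 278 cells with sebaceous gland genes held 8 Wnt4 UMIs and 3 Wnt3 UMIs (15.1 and 5.66 CPM). All 4 clusters held 0 Wnt10b UMIs, which over 13195156 UMIs and with 3 counts allowed is at most 0.227 CPM, against 4.46 CPM in all control keratinocytes. Control spinous-like cells at 1 week held Wnt10b at 0.782 CPM (11 UMIs). Counting the Krt8-led cells as keratinocytes at 1 day moved Wnt3 to 0.48 and Wnt10a to -0.94.

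The 1-day libraries also hold 4 antibody tags named as hashtags, and the labels do not say what each one marks. Hashtag 4 was nearly empty, with 2256 and 1425 UMIs, and 60.7% of control and 36.9% of experimental cells could be assigned to 1 of the others. These subsets share a library and are not replicates, so they show only how even the values were within it. Wnt10a in keratinocytes was at 44.5, 40.2 and 40.6 CPM for hashtags 1 to 3 of the control and at 23.6, 16.4 and 20.9 CPM in the experimental library. Wnt5a was at 3.40, 4.22 and 3.204 CPM against 1.06, 1.26 and 1.63 CPM. Wnt10b was at 0.644, 1.23 and 0.999 CPM against 0.228, 0.222 and 0.542 CPM, on 3 to 5 experimental UMIs each. For these 3 ligands the ranges of control and experimental subsets did not overlap. Wnt3 ranged from 27.1 to 55.6 CPM in the control subsets, a spread that took in all experimental ones (37.8 to 42.9 CPM), and Wnt4, Wnt7b and Wnt16 overlapped too. Of the 3464 control and 1957 experimental outer bulge-like cells, each hashtag took only 140 to 235 and 80 to 91. In these subsets Wnt10a was at 46.6 to 68.8 CPM in the control and 30.9 to 40.4 CPM in the experimental library, all above the levels of the whole class (35.7 and 20.97 CPM). Wnt7b was at 40.5 to 78.3 CPM and 34.2 to 40.4 CPM, also without overlap and above the whole class, in which it did not differ beyond its intervals, so the subsets do not stand for the class.

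**Figure D5:**
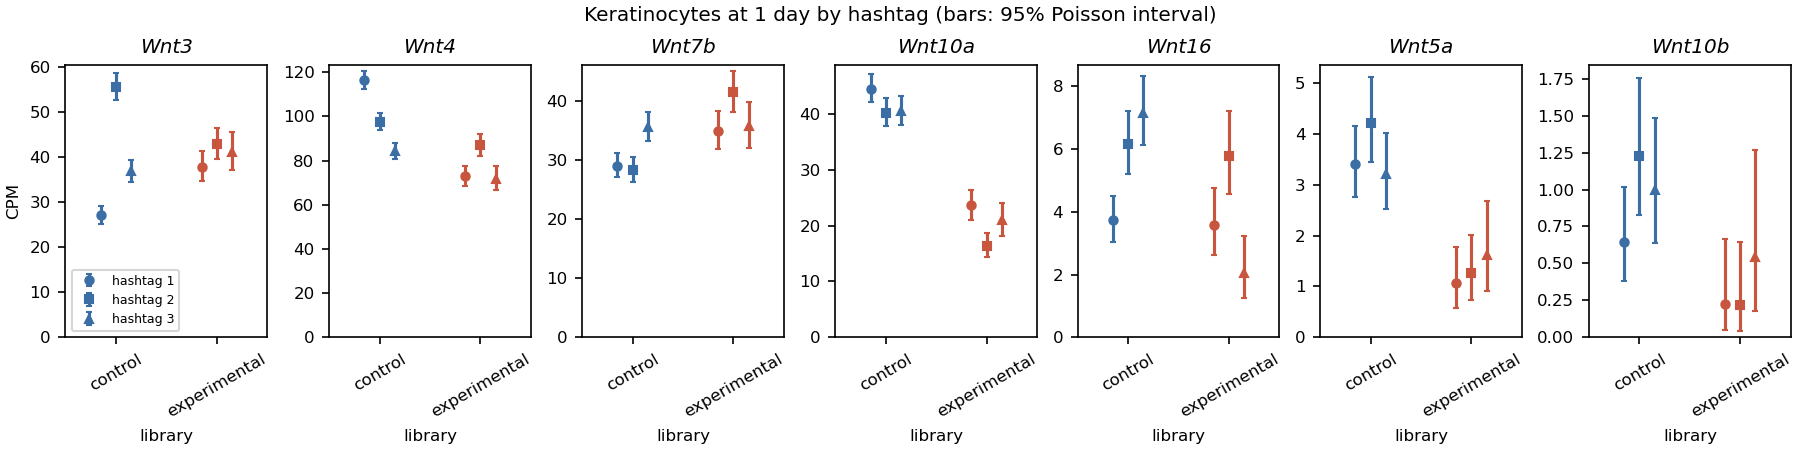
CPM in keratinocytes at 1 day (vertical axis) of 7 ligands (panels) for the cells assigned to hashtags 1, 2 and 3 (circle, square, triangle) of the control (blue) and experimental (red) library, with 95% Poisson intervals. The Wnt10a, Wnt5a and Wnt10b subsets of the experimental library all lie below those of the control, and the Wnt3 subsets of the control span 27.1 to 55.6 CPM.

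Outside the keratinocytes, RNA from keratinocytes has to be set beside each level. As a share of the keratinocyte level, Krt14 in fibroblast-like cells was 27.6% in the control and 96.9% in the experimental library at 1 day, and 14.3% and 6.72% at 1 week. In T cell-like cells it was 36.8% and 94.8%, then 5.5% and 4.82%. The 1-day experimental T cell-like cells also held Cd3e at 325 CPM, against 1211 CPM in the control, at median depths of 2869 and 1232 UMIs. Fibroblast-like cells at 1 day had 1 of 6 ligands lower (14.0% of 7758 genes), which was Wnt16, from 37.6 to 17.6 CPM, and 3 of 6 higher (11.3%). The 3 were Wnt3 (9.39 to 41.4 CPM), Wnt4 (26.99 to 75.5 CPM) and Wnt7b (4.69 to 36.2 CPM), which are keratinocyte ligands that moved with Krt14 in these cells. Carried over in the ratio of Krt14, keratinocyte RNA would give the experimental cells 38.6, 72.8 and 35.8 CPM. These values lie inside the interval of each measured level, and the part of such RNA in the ratios was not tested. In the same cells Dcn went from 633.7 to 388 CPM, Col1a1 from 636.1 to 589.7 CPM and Krt10 from 1064 to 4388 CPM. Median depth went from 1131 to 2943 UMIs, and the part of these shifts in the Wnt16 ratio was not tested. At 1 week 1 of 3 was lower (4.32% of 8014 genes), Wnt10a from 37.6 to 15.1 CPM (42 and 8 UMIs), and 0 of 3 higher (5.09%). The fibroblast genes Col1a1 (4390 to 2099 CPM) and Dcn (10110 to 5792 CPM) were lower there too, while Krt79 went from 94.95 to 744.5 CPM and Cd207 from 2.69 to 142 CPM, and the part of these shifts in the Wnt10a ratio was not tested.

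Some stromal and immune levels exceeded what Krt14 would carry with it. In fibroblast-like cells Wnt5a, Wnt10a and Wnt16 had intervals above that level in all 4 libraries, and the intervals of Wnt5a and Wnt16 also lay above their level in all keratinocytes, except for Wnt16 in the 1-week control (24.1 to 46.7 CPM, with 26.9 CPM in keratinocytes). For Wnt5a the measured levels were 18.8 and 12.4 CPM in the 1-day pair of libraries and 30.5 and 26.4 CPM in the 1-week pair, and the levels carried with Krt14 would be 0.895, 1.19, 1.26 and 0.139 CPM. Control and experimental fibroblast-like cells did not differ in Wnt5a beyond their intervals at either time point (-0.60, from -1.81 to 0.57, and -0.20, from -1.22 to 0.73), and at 1 week neither did Wnt16 (34.04 and 35.9 CPM). Wnt10b in T cell-like cells was above that level in all 4 libraries as well, at 11.6 and 5.34 CPM and at 24.3 and 28.2 CPM, on 14, 8, 12 and 7 UMIs. Its 1-day ratio of -1.12 had an interval from -2.58 to 0.23. These 4 levels also exceeded those of all keratinocytes (1.11 and 0.367 CPM, then 4.46 and 0.801 CPM). Of the other ligands at 1 week, T cell-like cells of the experimental library held none. Krt14 is a limited measure of such RNA. In the 65 Langerhans-like cells of the 1-week experimental library Wnt3 (13.06 CPM), Wnt4 (24.3 CPM) and Wnt7b (13.06 CPM) were above the 2.84, 4.61 and 1.5 CPM that go with Krt14, yet below the keratinocyte levels. Krt10 was at 1851 CPM in those cells, against 2350 CPM in keratinocytes, while Krt14 was at 4.81% of its keratinocyte level.

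Shares of cells with at least 1 UMI, after thinning every cell to 1000 UMIs, followed the levels for Wnt4. Of control keratinocytes at 1 day 9.10% had a UMI (1812 of 19916, exact binomial interval 8.70 to 9.51), and of experimental ones 6.89% (1071 of 15534, 6.50 to 7.30). Langerhans-like cells, set beside them in addition to the planned T cell-like background, had 1.39% (5 of 360) and 1.08% (5 of 461). Both lay below the keratinocyte shares, at median depths of 2413.5 and 2173 UMIs. Whether Langerhans-like cells make Wnt4 was not tested. Their Wnt4 level was 12.95 and 12.7 CPM, against 98.4 and 75.1 CPM in keratinocytes. T cell-like cells had 2.00% and 7.18%, but in the experimental library that class held Krt14 at 94.8% of the keratinocyte level and Cd3e at 325 CPM, so it gives no clean background. At 1 week the shares were 12.2% and 7.67% in keratinocytes. T cell-like cells had 0 of 205 and 0 of 111, which with 3 counts allowed is up to 1.46% and 2.70%. Before thinning, the control T cell-like cells held 4 Wnt4 UMIs. Too shallow to be thinned were 464 control keratinocytes at 1 day and 177 at 1 week. Unthinned, 32.9% of control and 23.8% of experimental keratinocytes had a UMI at 1 day (median depths 4394.5 and 3633 UMIs), as did 50.3% and 35.9% at 1 week (6881 and 7041 UMIs). Those of T cell-like cells were 3.50% and 18.9% at 1 day, at median depths of 1386 and 2869 UMIs.

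Of the 10 other Wnt ligand genes, 4 had enough UMIs in keratinocytes. Wnt6, the neighbour of Wnt10a, was lower at 1 day like it, from 3.89 to 1.89 CPM (log2 ratio -1.04), though over clusters with at least 5% control cells it had -0.46 (-0.77 to -0.17), and at 1 week went from 9.01 to 7.10 CPM (-0.34). Wnt11, a noncanonical ligand, had similar 1-day levels of 2.25 and 2.55 CPM but 1-week levels of 4.27 and 11.6 CPM (1.44). Over the clusters with at least 50 cells in both libraries its 1-week ratio was 0.83 (0.54 to 1.13), short of 2-fold. Wnt9a, the neighbour of Wnt3a, was rare, with 27 and 34 UMIs in the 1-day libraries (0.94; 0.16 to 1.72) and 7 and 13 in the 1-week ones (1.26; -0.17 to 2.83). Over those clusters it had 1.48 (0.68 to 2.28) at 1 day and too few UMIs at 1 week. Wnt5b was at 2.21 and 2.79 CPM and at 3.37 and 4.09 CPM over all keratinocytes, but in outer bulge-like cells it was higher in the experimental library each time, at 8.03 against 3.91 CPM at 1 day (1.04), then at 24.2 against 10.1 CPM at 1 week (1.26). Its close relative Wnt5a was at or under 11 UMIs in those cells.

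The machinery around the ligands was measured with lists drawn up with earlier results of these data known, in keratinocytes. The median log2 ratio of all genes with enough UMIs was 0.001 at 1 day and 0.081 at 1 week, and the ligands followed here had -0.37 (8 genes) and -0.40 (9 genes). The list counts below are to be read beside the shares over all genes, 3.12% lower and 5.94% higher at 1 day and 5.60% and 10.3% at 1 week. When only clusters with at least 5% control cells were summed, 2.06% of genes were lower and 8.15% higher at 1 day (median 0.127), and 5.21% lower and 13.1% higher at 1 week (median 0.192). The lists also moved with the clusters summed. At 1 week the ligands' median was -1.56 over clusters with at least 5% control cells and -0.52 over those with at least 50 cells in both libraries (all genes -0.012). The list for acylation and secretion holds Porcn, Wls and also Notum, which encodes a secreted enzyme that removes the lipid and so inhibits Wnt signals. Past 2-fold were 0 of these 3 at 1 day and 1 of 2 with enough UMIs, Porcn, at 1 week. Porcn, which acylates the ligands, had 5.21 against 4.12 CPM in the experimental library at 1 day, then 19.0 against 4.85 CPM at 1 week (log2 ratio 1.97). Wls had 71.1 against 94.7 CPM at 1 day (-0.41) and was lower by more, at 77.3 against 135 CPM, at 1 week (-0.81). Among 16 receptors and co-receptors 0 passed at either time point, with medians of -0.04 and 0.18, and among 11 intracellular and nuclear effectors 0 passed, with -0.04 and 0.07. Over clusters with at least 5% control cells at 1 week, 4 of 16 receptors were higher (median 0.52), 1 of 11 effectors was higher and 1 of 5 feedback targets lower (median 0.02), against 13.1% of all genes higher and 5.21% lower, while over clusters with at least 50 cells in both libraries 0 of each list passed. Feedback targets of the canonical branch had 0 of 5 past 2-fold at both, with medians of -0.32 and -0.34, but these were 0.03 at 1 day over clusters with at least 5% control cells and -0.03 at 1 week over those with at least 50 cells in both libraries. Axin2 had 3.78 CPM in the experimental library against 4.71 CPM in the control at 1 day, then 8.12 against 10.3 CPM.

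R-spondins, which raise the response to Wnt by way of Lgr receptors, had ratios in both directions. At 1 day 1 of 7 genes of this axis was higher and 0 lower, and at 1 week 1 was higher and 1 lower, with medians of -0.07 and -0.36. Over clusters with at least 5% control cells 1 of 7 was lower at 1 day (2.06% of all genes) and 2 of 7 were higher at 1 week (13.1%). The medians there were 0.31 and 0.20, against 0.127 and 0.192 for all genes. Over those with at least 50 cells in both libraries 1 of 7 was lower (5.00% of all genes) and 1 of 7 higher (5.59%) at 1 week. The median there was -0.30, against -0.012 for all genes. Rspo3 had a log2 ratio of -0.04 at 1 day. At 1 week its control level was 7.66 CPM (359 UMIs) and its experimental level 0.249 CPM (9 UMIs), a log2 ratio of -4.95 (-6.09 to -4.01). This ratio is over all keratinocytes, with 2097 basal interfollicular-like and 1106 spinous-like control cells against 18 and 7 experimental ones. The part of these classes in it was not tested. Rspo1 went the other way, from 3 to 23 UMIs at 1 day (3.54; 1.81 to 5.92) and from 2 to 41 UMIs at 1 week (4.73; 2.78 to 7.82). Of the secreted and surface inhibitors, 1 of 9 was higher at 1 day, Dkk2 with 16 and 39 UMIs (1.89), and 2 of 8 at 1 week, Sfrp2 with 20 and 43 UMIs (1.48) and Wif1 at 3.95 and 10.02 CPM (1.34), and 0 were lower. Over clusters with at least 5% control cells 2 of 9 inhibitors were higher at 1 day (8.15% of all genes; medians 0.36 and 0.127) and 3 of 8 at 1 week (13.1%; medians 0.70 and 0.192), and over those with at least 50 cells in both libraries 0 of 8 at 1 week (median -0.02). Sfrp2 and Wif1 encode secreted proteins that bind Wnt ligands, and Dkk2 a protein that binds Lrp5 and Lrp6.

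The genes whose level was most like that of the 3 most abundant ligands were found over cell classes by library, with 35 points at 1 day and 24 at 1 week and 11016 genes compared. The points share libraries and depth, so Pearson's r on log2(CPM + 1) is a description only. For Wnt4 they were P3h2 (r of 0.82 at 1 day and 0.83 at 1 week), Dsg3 (0.82 and 0.81) and Sema3c (0.81 and 0.80). For Wnt3 they included Serpinb2 (0.89 and 0.91) and Il22ra2 (0.88 and 0.86). For Wnt10a they were Fcgbp (0.86 and 0.85), the basal keratin gene Krt5 (0.87 and 0.83) and Card10 (0.85 and 0.81).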

How the data were processed

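Single-cell RNA was measured in 4 libraries, 1 per group. The authors deposited whole-number UMI counts of each gene in each barcode. Cell Ranger 5.0.1 is named in the file headers, and the submitters' processing notes also name mm10 and Seurat. Whether counting used strand is not given in the sources used here.

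A barcode was kept from 500 UMIs and 300 genes upward if mitochondrial UMIs made up 15% or less. The barcodes with the highest Scrublet scores (scanpy 1.11.5) were removed as doublets, 0.8% for each 1000 barcodes deposited. Clustering was done per time point, over its control and experimental library, on 2000 variable genes, without the Wnt pathway genes (30 components, 15 neighbours, leidenalg 0.10.2, resolution 1). Clusters were named from 22 marker lists. Low-UMI clusters are those in which at least 50% of barcodes had under 3000 UMIs and a profile close to that of the 10% of barcodes with the fewest UMIs. The limits for naming, for low-UMI clusters, for clusters with under 5% control cells and for clusters with at least 50 cells in both libraries were set after the data were seen.

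UMIs were summed by class and library and scaled to the gene UMIs of the class (CPM), with exact Poisson intervals, and log2 ratios had exact conditional binomial intervals (95%, scipy 1.17.1). No test across samples was made, because each group is 1 library. A ratio needed 20 UMIs over both libraries and 50 cells in each. The calculation was tested on simulated data with 200 changed genes. All 9 ligands are named, other Wnt ligands where both libraries of a time point together held 20 UMIs in keratinocytes, and of each other pathway list up to 2 genes highest and 2 lowest past 2-fold. The genes most like the 3 most abundant ligands are named up to 3 each, and 1 of them is not reported here. Others named, such as Axin2, were chosen after their values were seen. The ligands and lists were chosen with earlier results of these data known. Alternatives covered the scaling, barcode and doublet filters, clustering resolution, UMI minimum and clusters summed, and the closing section gives their effect.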

Additional observations from a re-analysis of the deposited data

Results flagged for a closer look

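The ratios of 4 ligands had opposite signs at the 2 time points in the same class, each with an interval that did not include 0. The time points differ in kit, so the difference between them was not tested. In keratinocytes Wnt3 had a log2 ratio of 0.13 at 1 day and -0.39 at 1 week, and Wnt7b had 0.30 and -0.28. Over clusters with at least 5% control cells Wnt3 had -0.40 and -1.58, and Wnt7b had -0.05 and -1.12. At 1 week that set keeps basal and spinous-like control cells with few experimental counterparts. Over clusters with at least 50 cells in both libraries the 1-week values were -0.09 (-0.27 to 0.09) and 0.16 (-0.07 to 0.39), with both intervals including 0. In granular-like cells Wnt3 had 0.54 and -1.94 and Wnt4 had 0.84 and -3.48, with 74 control cells at 1 week. In that class 36.0% of 8097 genes were at least 2-fold lower at 1 week, with a median log2 ratio of -0.59. Markers of other classes also differed between its libraries at each time point, such as Krt79 at 3601 and 1632 CPM at 1 day. The part of this in the ratios was not tested. In outer bulge-like cells Wnt10a had -0.77 at 1 day and 0.46 at 1 week. The 1-day class held 3 clusters, with -1.05, -0.62 and 0.01, and the 1-week class was 1 cluster.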

How the results depend on the processing

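No paired analysis was possible because each group is 1 library. Of 219 alternative values for single ligands in keratinocytes, 171 stayed within the counting interval, and 12 had the other sign. Of 334 values by class 303 stayed within it, and 39 had the other sign, 1 of them for a ligand past 2-fold: Wnt3 in outer bulge-like cells at 1 day, at -0.02 without doublet removal. The 12 in keratinocytes were Wnt3, Wnt7b and Wnt3a at 1 day (to -0.40, -0.05 and 0.58) and, over clusters with at least 50 cells in both libraries, Wnt7a (-0.64), Wnt7b (0.16) and Wnt10a (0.03) at 1 week. Over those clusters 1 of 8 ligands was lower at 1 week (5.00% of genes) instead of 4 of 9 (5.60%). Wnt5a was at -0.55 and Wnt16 at -0.52 there. Over clusters with at least 5% control cells 2 of 8 were lower at 1 day (2.06%) instead of 3 of 8 (3.12%). At 1 week 6 of 9 were lower over them (5.21%) instead of 4 of 9. Higher at 1 week were 0 of 9 over that set (13.1%) and 0 of 8 over the other (5.59%), instead of 1 of 9 (10.3%). With a minimum of 10 UMIs 1 was higher at 1 day instead of 0, and the share of all genes at that minimum was not computed. Both sets of clusters were chosen after seeing the data. The 1-day ratio of Wnt10a was short of 2-fold over them (-0.48), with Krt8-led cells (-0.94) and over all cells (-0.95). Wnt5a ranged from -1.62 to -1.07 at 1 day and -2.44 to -0.55 at 1 week, and Wnt10b from -1.85 to -1.18 and -2.68 to -1.65. The causes were not tested. Wnt3a and Wnt7a had few UMIs at 1 day, which limits what their values can show.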
